A study of Mus musculus with 12 samples.

Results

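The response to doxycycline was followed in wild-type (WT) mouse embryonic fibroblasts, connective tissue cells grown from mouse embryos, by sequencing polyadenylated RNA. The comparison took 6 of the 12 libraries of the series, 3 of WT cells given doxycycline (WT Dox) and 3 of WT cells given the solvent DMSO (WT DMSO), which were picked by their labels. Treatment was 30 µg/ml doxycycline for 24 hours, with no other antibiotic, in DMEM with 4.5 g of glucose per liter and 10% fetal bovine serum. The other 6 libraries came from cells depleted of CBP and p300 and given doxycycline (KO Dox) or DMSO (KO DMSO), and they serve here to test where the WT response differed. CBP and p300 are related lysine acetyltransferases and transcriptional coactivators, encoded by Crebbp and Ep300. The KO cells are immortalized fibroblasts with floxed alleles of both genes that stably express the tamoxifen-activated recombinase Cre-ERT2 and were given 4-hydroxytamoxifen. Whether the WT cells carry the floxed alleles or the recombinase, or were also given 4-hydroxytamoxifen, was not stated.

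Doxycycline is a tetracycline antibiotic that binds bacterial ribosomes and also slows the related ribosomes inside mitochondria, which translate the few proteins encoded by mitochondrial DNA. In mammalian cells, trouble in mitochondria is known to engage the integrated stress response. In this pathway a kinase phosphorylates the initiation factor eIF2, general translation falls, and the transcription factor ATF4 is translated and turns on genes of amino acid supply, tRNA charging and redox balance.

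ATF4 acts as a dimer with C/EBP proteins on a short DNA element with the core TGATGNAA. This core was searched on both strands from 250 bases before to 50 bases after each gene's start, in RefSeq sequence of build GRCm38.p6. It was present in 9 of the 29 integrated stress response genes with a promoter in the table (31%), against 255 of 9407 measured genes (2.71%) and 1219 of 27025 genes in all (4.51%). Of the 20 genes with the largest rises named further on, 13 had a promoter in the table and 6 of these held the core (46.2%). Of the 20 with the largest falls, 14 had a promoter and 0 of these held it. A match is a description of the sequence and not a measured binding site. The stretches around the matches of 8 genes are shown, of which 7 were among the clearest rises and 1, Atf3, did not pass the test. Each runs 5′ to 3′ on the gene's strand, with the core, or TTNCATCA where it lies on the other strand, in capitals.
Chac1, chr2:119351023-119351082, plus strand: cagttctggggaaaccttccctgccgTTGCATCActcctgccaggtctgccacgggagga
Slc7a11, chr3:50443627-50443686, minus strand: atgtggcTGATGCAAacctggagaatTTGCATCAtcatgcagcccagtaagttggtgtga
Asns, chr6:7693210-7693269, minus strand: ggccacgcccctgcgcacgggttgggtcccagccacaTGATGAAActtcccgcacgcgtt
Nupr1, chr7:126625547-126625606, minus strand: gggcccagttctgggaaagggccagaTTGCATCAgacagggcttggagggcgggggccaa
Herpud1, chr8:94386291-94386350, plus strand: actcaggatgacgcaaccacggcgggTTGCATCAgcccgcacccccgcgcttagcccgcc
Pycr1, chr11:120643818-120643877, minus strand: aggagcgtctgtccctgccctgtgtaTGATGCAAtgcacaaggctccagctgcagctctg
Vldlr, chr19:27216794-27216853, plus strand: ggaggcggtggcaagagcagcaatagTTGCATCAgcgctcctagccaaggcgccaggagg
Atf3, chr1:191183410-191183469, minus strand: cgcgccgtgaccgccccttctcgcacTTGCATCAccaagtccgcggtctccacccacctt
The start of Slc7a11 is preceded by 2 such cores in opposite orientation.

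The 6 WT libraries held 51262449 to 52173143 reads counted in genes, and the table lists 12637 genes. Levels are given as CPM, a gene's count relative to all reads counted in genes, scaled by the TMM method. A gene was called at an adjusted p under 0.05 in edgeR's quasi-likelihood test over all genes. Whether the replicates were grown separately is not stated, so p-values reflect only how far these libraries differ, and that may be technical. Their spread was small, with a common biological coefficient of variation of 2.51%, so small changes passed the test. WT Dox 1 stood apart from WT Dox 2 and 3, with a chi-square per gene of 8.16 and 6.35 against them, while WT Dox 2 and 3 differed by 1.47. All 3 WT DMSO libraries and KO DMSO 1 were low in processed pseudogenes, so in WT cells this difference between libraries and the treatment cannot be told apart. Values with a term for these 4 low libraries, in a fit of all 12, are given beside the counts of each list and beside the named genes that lost their call. The term itself rests on KO DMSO 1 against KO DMSO 2 and 3, since all 3 WT DMSO libraries are low. Its error is therefore larger, and a call can be lost without a smaller change, as for the chemokine gene Ccl5 (log2 fold change 0.29, and 0.42 with the term). KO DMSO 1 and 2 also had more unmapped reads, 7.63% and 6.65%, against 1.85 to 2.09% in all other libraries. KO DMSO 2 had the fewest reads counted in genes, 44476039. How far this affected the term or the differences between WT and KO was not tested. Of 11 fibroblast markers 10 were in the table, with a summed level of 12149 to 12605 CPM in WT Dox and 12096 to 12195 CPM in WT DMSO, though Dcn stood at 2.95 CPM in WT DMSO. Markers of endothelial and epithelial cells, 9 each, were at 0 of 9 in the table, and 4 of 10 macrophage markers summed to 21.6 to 22.9 CPM in WT Dox and 30.6 to 32.0 CPM in WT DMSO. The 4 of 9 neural markers in the table summed to 62.9 to 66.6 CPM in WT Dox and 71.8 to 74.4 CPM in WT DMSO. For 2 of 8 adipocyte markers the sums were 31.4 to 33.1 CPM in WT Dox and 43.6 to 45.9 CPM in WT DMSO, and for 2 of 9 muscle markers 6.57 to 7.28 CPM in WT Dox and 7.97 to 9.19 CPM in WT DMSO, so all 4 of these sums were lower in WT Dox. Their part in the results was not tested. Crebbp had 57.8 to 60.8 CPM in WT Dox and 62.4 to 64.3 CPM in WT DMSO, and Ep300 had 170 to 188 CPM in WT Dox and 182 to 190 CPM in WT DMSO. Crebbp was called at a log2 fold change of -0.10 (adjusted p = 0.011), but not with the term (adjusted p = 0.23). Ep300 had -0.08 and did not pass (adjusted p = 0.058), but did without WT Dox 1 (-0.12) and in the fit of all 12 libraries (-0.09).

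Most measured genes of the integrated stress response (25 of 35), of serine and one-carbon supply (18 of 24) and of tRNA charging in the cytosol (19 of 20) rose in WT Dox, while most of those of cholesterol supply (24 of 29), of G2 and mitosis (33 of 36) and of NF-kappa B inflammation (26 of 34) fell. Among the 11287 genes with protein-coding style symbols, 2881 rose (25.5%) and 3012 fell (26.7%). Most changes were slight, with a median log2 fold change of 0.18 among the rises and -0.21 among the falls. At least 2-fold rises were seen for 45 of these genes (0.399%) and 2-fold falls for 27 (0.239%). Of the 45 rises, 3 are annotated as processed pseudogenes. Another 5 are transcripts of mitochondrial DNA, and none of these 5 passed with the term for the low libraries. Tested against a change of 1.2-fold instead of 0, 354 rose and 491 fell. With the term for the low libraries 1239 rose (11%) and 1524 fell (13.5%), with 32 at least 2-fold in each direction (0.284%). Without WT Dox 1, 3430 rose and 3317 fell.

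**Figure D1:**
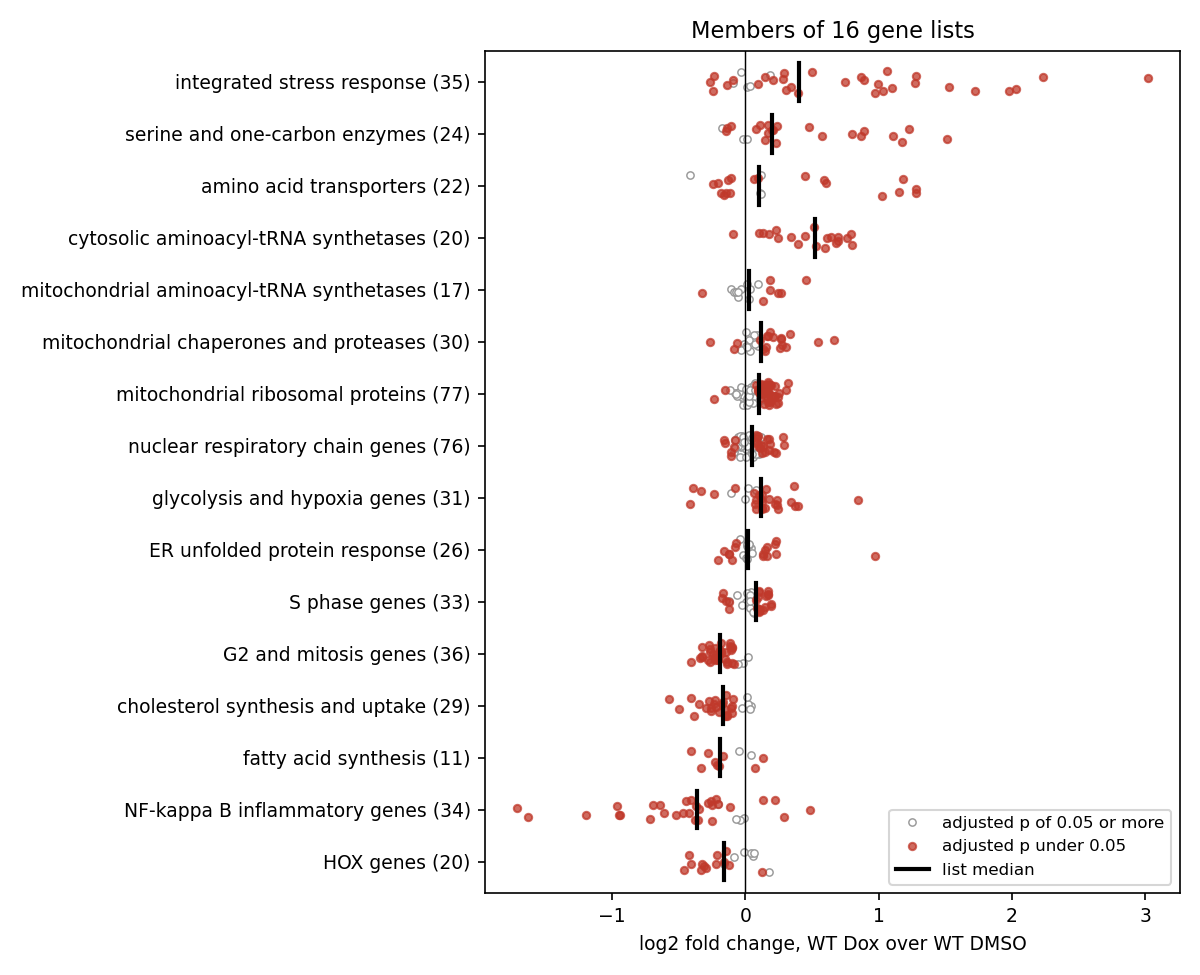
log2 fold change of WT Dox over WT DMSO (horizontal axis) for each measured member of 16 gene lists, with the number of members in brackets. Filled points passed the test, open points did not, and the bar is the list median. Cytosolic aminoacyl-tRNA synthetases have the highest median of these lists (0.52) and the NF-kappa B list the lowest (-0.36).

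The integrated stress response list had 39 genes, of which 35 were measured. Of these 25 rose and 5 fell, against 25.3% and 25.5% of all 12637 genes, and 11 rose at least 2-fold, against 1.35% of all genes. The median log2 fold change was 0.40, and -0.01 over all genes. With the term for the low libraries 23 rose and 1 fell, and without WT Dox 1, 26 rose and 5 fell. Against a change of 1.2-fold, 19 rose and 0 fell.

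The kinases that start the pathway did not rise. Eif2ak3, which encodes the endoplasmic reticulum kinase PERK, had 32.8 to 35.2 CPM in WT Dox and 34.2 to 35.8 CPM in WT DMSO, and Eif2ak4, which encodes the amino acid sensor GCN2, 70.1 to 70.9 CPM in WT Dox and 69.5 to 70.6 CPM in WT DMSO. Their log2 fold changes were -0.03 ± 0.037 (SE) and 0.01 ± 0.026, with adjusted p of 0.53 and 0.73. Eif2ak1, for the kinase HRI, changed by -0.09 and Eif2ak2, for the kinase PKR, by -0.24, and both passed the test, Eif2ak1 not with the term for the low libraries (adjusted p = 0.11). Oma1, the mitochondrial protease that cleaves the relay protein DELE1, had a log2 fold change of 0.04 (adjusted p = 0.62), and Dele1 rose by 0.09, which did not pass with the term (adjusted p = 0.19). The eIF2 subunit gene Eif2s1 rose by 0.28, and the phosphatase subunits that reverse the phosphorylation, Ppp1r15a and Ppp1r15b, by 0.29 and 0.21.

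Among the 8 transcription factors of the pathway 6 rose and 1 fell. Atf4 had 596, 615 and 613 CPM in WT Dox, against 325, 336 and 324 CPM in WT DMSO. The groups lay far apart, with a log2 fold change of 0.89 ± 0.023. Its relative Atf5 had 294, 315 and 315 CPM in WT Dox, against 152, 151 and 149 CPM in WT DMSO (log2 fold change 1.03). Ddit3, which encodes the C/EBP relative CHOP, had 37.7, 41.6 and 41.7 CPM in WT Dox, against 20.4, 20.3 and 19.97 CPM in WT DMSO (0.996). Nupr1, a small stress-induced nuclear protein, had 27.8, 31.3 and 31.8 CPM in WT Dox, against 10.4, 10.6 and 10.6 CPM in WT DMSO (1.53). In each of these genes every WT Dox library lay above every WT DMSO library. Jdp2, a repressor of AP-1, rose by 1.06, and the ATF4 partner Cebpg by 0.31. Atf3 was low, at 4.70 to 5.39 CPM in WT Dox and 4.18 to 4.46 CPM in WT DMSO, and its log2 fold change of 0.19 did not pass (adjusted p = 0.065), but did without WT Dox 1 (adjusted p = 0.034). Cebpb went the other way, with a log2 fold change of -0.27 that did not pass with the term for the low libraries (-0.06, adjusted p = 0.66).

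Trib3, a pseudokinase induced by ATF4 that binds ATF4 in turn, had the largest rise of all protein-coding style genes. Trib3 had 93.9, 97.1 and 98.1 CPM in WT Dox, against 12.3, 12.4 and 10.9 CPM in WT DMSO, a log2 fold change of 3.02 ± 0.042 (adjusted p = 6.5e-17). Trib3 thus averaged 96.4 ± 2.20 CPM in WT Dox and 11.9 ± 0.868 CPM in WT DMSO (SD, n = 3 each), an 8.13-fold change far beyond the spread. Its relatives Trib1 and Trib2 fell by 0.13 and 0.24, and neither call stood with the term for the low libraries, where Trib2 had 0.04.

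Genes that handle cysteine and glutathione followed. Chac1, which breaks down glutathione, had 58.9, 61.9 and 63.2 CPM in WT Dox, against 12.8, 13.2 and 13.2 CPM in WT DMSO, a log2 fold change of 2.23 ± 0.040. Cth, which makes cysteine from cystathionine, had 96.7, 98.3 and 99.0 CPM in WT Dox, against 29.4, 29.4 and 30.3 CPM in WT DMSO (1.72 ± 0.029). Slc7a11, which imports cystine, had 32.7, 29.3 and 28.8 CPM in WT Dox, against 11.7, 13.3 and 12.4 CPM in WT DMSO (1.28 ± 0.057). These 3 were all more than 2-fold higher in WT Dox. Gclm, the modifier subunit of the first enzyme of glutathione synthesis, rose by 0.34, so all 4 measured genes of this kind rose.

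Restraints on the growth kinase complex mTORC1, or on the translation that it promotes, rose in 3 of 4. Sesn2, a leucine sensor, had 82.9, 79.9 and 80.0 CPM in WT Dox, against 31.8, 34.2 and 34.7 CPM in WT DMSO (log2 fold change 1.27 ± 0.035). Ddit4 rose by 0.75 and Eif4ebp1, which holds back cap-dependent translation, by 0.87, while the arginine sensor gene Castor1 had -0.09 (adjusted p = 0.22). Asns, asparagine synthetase, had 544, 568 and 556 CPM in WT Dox, against 259, 266 and 252 CPM in WT DMSO (1.10 ± 0.026). Of the secreted factors, Vegfa rose by 0.50 and Angptl6 by 1.98, the second at 5.08 to 6.17 CPM in WT Dox and 1.38 to 1.51 CPM in WT DMSO. Vldlr, a lipoprotein receptor, rose by 2.03 at 10.6 to 11.6 CPM in WT Dox and 2.59 to 2.85 CPM in WT DMSO. Herpud1, of protein disposal at the endoplasmic reticulum, rose by 0.97 and the autophagy receptor Sqstm1 by 0.40.

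**Figure D2:**
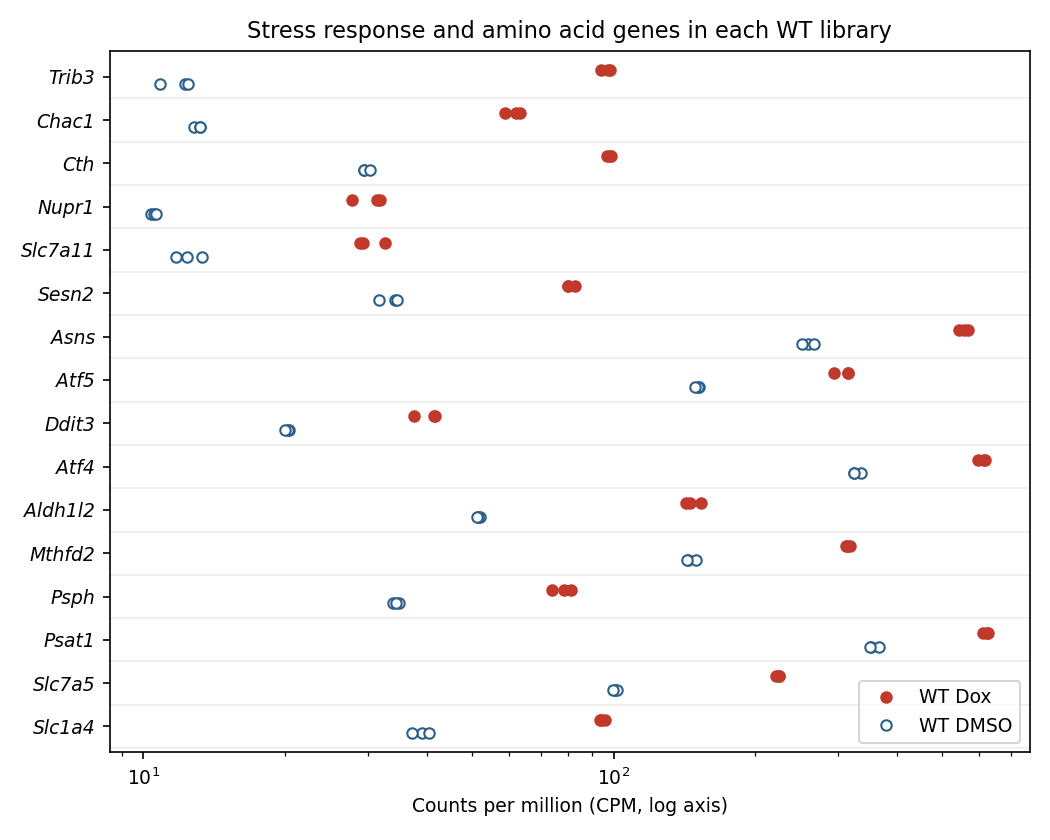
Level of 16 stress response and amino acid genes in each of the 6 WT libraries, in CPM on a log axis, with WT Dox filled and WT DMSO open. In every gene shown the 3 WT Dox points lie above the 3 WT DMSO points. The gap is widest for Trib3, with 93.9 to 98.1 CPM in WT Dox and 10.9 to 12.4 CPM in WT DMSO.

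Serine and one-carbon enzymes supply serine, glycine and folate-bound carbon units. Of 24 measured, 18 rose and 3 fell, against 25.3% and 25.5% of all genes, with a median log2 fold change of 0.20. At least 2-fold rises were seen for 4, against 1.35% of all genes. Under the term for the low libraries 14 rose and 1 fell, and against a 1.2-fold change 9 rose and 0 fell. The 3 enzymes of serine synthesis all rose, in the order of the pathway Phgdh by 0.57, Psat1 by 0.80 and Psph by 1.17. Psph, the last step, had 74.1, 81.1 and 78.3 CPM in WT Dox, against 34.0, 34.9 and 34.5 CPM in WT DMSO. Psat1 had 611, 622 and 626 CPM in WT Dox, against 352, 367 and 350 CPM in WT DMSO. The groups of both genes were well apart.

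The folate cycle has a mitochondrial and a cytosolic branch. Aldh1l2 of the mitochondrial branch, which oxidises formyl-folate, had 154, 143 and 146 CPM in WT Dox, against 52.1, 51.4 and 51.3 CPM in WT DMSO (log2 fold change 1.51 ± 0.031). Mthfd2 had 312, 318 and 313 CPM in WT Dox, against 144, 150 and 144 CPM in WT DMSO (1.11 ± 0.024). Shmt2, which makes glycine from serine, rose by 0.87 and Mthfd1l by 0.48, and the median over the 6 mitochondrial members was 0.67. Mthfd2l fell by 0.14. The 7 cytosolic members had a median of 0.17, with Shmt1 at 0.17 and Mthfd1 at 0.20, and Tyms, which makes thymidylate, fell by 0.15. Neither Shmt1 nor Tyms passed with the term (adjusted p = 0.26 and 0.15). The difference between the branches was not tested. Aldh18a1 and Pycr1, enzymes on the way from glutamate to proline in mitochondria, rose by 0.89 and 1.23, and Pycr1 had 94.9, 103 and 98.6 CPM in WT Dox, against 44.0, 42.6 and 40.4 CPM in WT DMSO. Oat, which joins ornithine to this pathway, fell by 0.11 (adjusted p = 0.055 with the term).

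Among amino acid transporters 10 of 22 rose and 8 fell (8 and 3 with the term for the low libraries). Over all genes 25.3% rose and 25.5% fell. The 5 transporters that changed at least 2-fold all rose. Slc7a5, the light chain of the carrier for large neutral amino acids, had 224, 224 and 222 CPM in WT Dox, against 101, 102 and 99.6 CPM in WT DMSO (log2 fold change 1.15 ± 0.023). Its heavy chain Slc3a2, shared with Slc7a11, rose by 0.60. Slc1a4, which carries serine and other small neutral amino acids, had 95.8, 94.1 and 93.3 CPM in WT Dox, against 39.2, 40.5 and 37.2 CPM in WT DMSO (1.28 ± 0.032). The glycine carrier Slc6a9 rose by 1.18, the cationic amino acid carrier Slc7a1 by 1.03, Slc1a5 by 0.59 and Slc38a1 by 0.45. Slc38a2, a carrier of glutamine and alanine, fell by 0.11. All 3 carriers of the lysosome fell, Slc36a4 by 0.24, Slc38a9 by 0.18 and Slc36a1 by 0.13, and with the term 1 of them did. Against a 1.2-fold change 8 transporters rose and 0 fell.

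Aminoacyl-tRNA synthetases attach amino acids to their tRNAs, and separate genes serve the cytosol and the mitochondria for most amino acids. Of the 20 cytosolic genes 19 rose and 1 fell, against 25.3% and 25.5% of all genes, with a median log2 fold change of 0.52. Nars, for asparagine, had 640, 635 and 626 CPM in WT Dox, against 359, 373 and 368 CPM in WT DMSO (0.79 ± 0.023). Tars, for threonine, had 439, 441 and 438 CPM in WT Dox, against 247, 256 and 254 CPM in WT DMSO (0.80 ± 0.022). Cars, for cysteine, rose by 0.77, and Aars and Lars, for alanine and leucine, by 0.68 and 0.69. Qars, for glutamine, had a fall of 0.09. Of the 17 mitochondrial genes 6 rose and 1 fell, with a median of 0.03. The largest rise was Nars2 at 0.46, with 10.5 to 11.3 CPM in WT Dox and 7.54 to 8.43 CPM in WT DMSO, and Sars2 fell by 0.33. With the term for the low libraries Nars2 had 0.24 and did not pass (adjusted p = 0.14). Lars2 and Iars2, for leucine and isoleucine, had -0.07 and 0.01 and did not pass. Under that term 17 cytosolic genes rose and 1 fell, against 2 and 1 of the mitochondrial ones. Against a 1.2-fold change, 14 cytosolic genes rose.

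**Figure D3:**
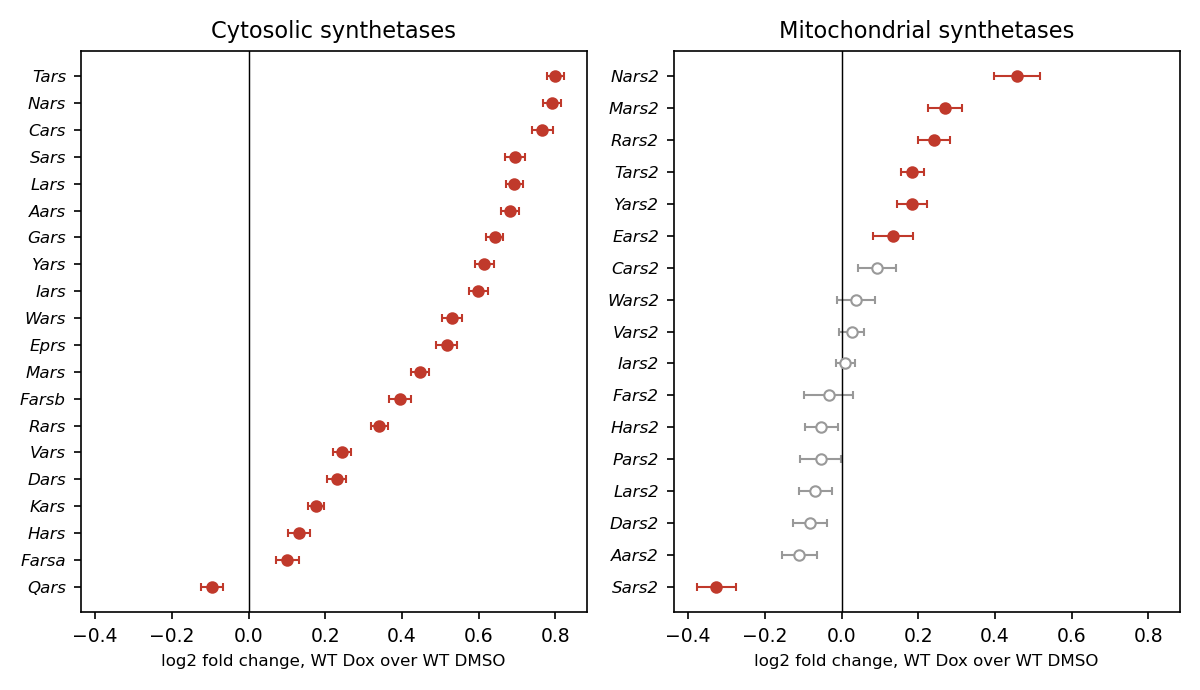
log2 fold change of WT Dox over WT DMSO for 20 cytosolic (left) and 17 mitochondrial (right) aminoacyl-tRNA synthetase genes, with bars of 1 SE. Filled points passed the test. In the left panel all points but Qars lie right of 0, and in the right panel the points scatter about a median of 0.03.

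Among protein-coding style genes at a mean of at least 3 on the log2 CPM scale, the 20 largest rises also hold genes of other kinds. Gpt2, the mitochondrial alanine aminotransferase, had 131, 125 and 127 CPM in WT Dox, against 56.0, 58.5 and 57.8 CPM in WT DMSO (log2 fold change 1.15). Cyb5r1, a cytochrome b5 reductase, had 153, 160 and 161 CPM in WT Dox, against 70.4, 72.9 and 71.1 CPM in WT DMSO (1.15). Klf4, a zinc finger transcription factor, rose by 1.14, P2rx3, an ATP-gated ion channel, by 1.43 and Sertad4 by 1.19. Pck2, the mitochondrial enzyme that makes phosphoenolpyruvate, lies outside the 20 and rose by 0.91. Of these 20 rises 12 belong to the stress response, serine or transporter lists, and 17 were also called with the term for the low libraries. The 3 that were not are mt-Atp6, mt-Co2 and mt-Co3.

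Mitochondrial chaperones fold and proteases clear proteins inside the organelle. Of 30 measured, 16 rose and 3 fell, against 25.3% and 25.5% of all genes. The median log2 fold change was 0.12, and none changed 2-fold. Lonp1, the main protease of the matrix, had 296, 302 and 299 CPM in WT Dox, against 188, 190 and 187 CPM in WT DMSO (0.67 ± 0.022). Hspa9, the matrix HSP70, had 1291, 1288 and 1275 CPM in WT Dox, against 873, 882 and 887 CPM in WT DMSO (0.54 ± 0.020). Its cochaperone Dnaja3 rose by 0.34 and the chaperonin pair Hspd1 and Hspe1 by 0.28 and 0.31. Both lie next to each other on chromosome 1. Spg7, of an inner membrane protease, fell by 0.26, and Yme1l1, another such protease, had 0.02 (adjusted p = 0.63). With the term for the low libraries 10 rose and 2 fell, and against a 1.2-fold change 3 rose and 0 fell.

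The transcripts of mitochondrial DNA did not move as one. mt-Co1, of cytochrome c oxidase, fell to 8130, 8436 and 8475 CPM in WT Dox, against 10920, 10993 and 10989 CPM in WT DMSO, a log2 fold change of -0.39 ± 0.022. mt-Nd2, of complex I, rose to 3054, 3296 and 3256 CPM in WT Dox, against 2046, 2072 and 2084 CPM in WT DMSO (0.63 ± 0.027). The ribosomal RNA mt-Rnr1 had 831, 830 and 849 CPM in WT Dox, against 471, 469 and 472 CPM in WT DMSO (0.83 ± 0.021). These 3 were also called with the term for the low libraries, at -0.50, 0.49 and 0.68. mt-Rnr2 rose by 0.25 (0.15 with the term). Since the libraries were selected for poly(A) tails, ribosomal RNA is counted here only as far as it was retained. mt-Nd5 and mt-Nd6 had 0.05 and -0.08 and did not pass, while mt-Nd5 did without WT Dox 1 (0.12).

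Another 5 mitochondrial transcripts rose more than 2-fold, from levels far under those of mt-Co1, mt-Nd2 and mt-Rnr1. Reads with several matches in the genome were left out of the gene counts. How far this lowered these 5 was not tested, so their values are uncertain. mt-Atp6 had 30.5, 31.2 and 31.7 CPM in WT Dox, against 7.08, 6.80 and 6.40 CPM in WT DMSO (log2 fold change 2.20). In the same groups mt-Co2 averaged 24.3 CPM in WT Dox and 7.09 CPM in WT DMSO (1.78), and mt-Co3 14.7 CPM in WT Dox and 4.37 CPM in WT DMSO (1.74). Their log2 fold changes with the term for the low libraries were 0.05, 0.05 and 0.20, and none of the 3 passed. In KO DMSO 1 they stood below KO DMSO 2 and 3 by 2.04, 1.65 and 1.42 on the log2 scale. mt-Nd3 and mt-Nd4l, under 3 CPM in every library, rose by 1.93 and 2.24 and did not pass with the term. mt-Nd1, mt-Nd4 and mt-Cytb rose by 0.15, 0.25 and 0.09, none of which passed with the term. In all, 11 of 14 genes of mitochondrial DNA rose and 1 fell, against 3 and 1 with the term.

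Nuclear genes for the same machinery changed by small amounts. Of 77 mitochondrial ribosomal protein genes 38 rose and 2 fell, with a median log2 fold change of 0.10, and of 76 nuclear respiratory chain genes 18 rose and 6 fell, with a median of 0.05. Over all genes 25.3% rose and 25.5% fell, so with all 6 WT libraries the respiratory chain had no excess of rises, but fewer falls. With the term for the low libraries these counts were 7 and 2, and 2 and 7. The count of rises depended on WT Dox 1. Without that library 41 respiratory chain genes rose and 3 fell, against 3430 and 3317 of the 11287 protein-coding style genes. Of 32 genes of mitochondrial transcription, RNA handling and translation 13 rose and 3 fell, Fastkd2 by 0.39 and Lrpprc, an RNA-binding protein that stabilises mitochondrial transcripts, by 0.33, and with the term 5 rose and 0 fell. Tfam, which packages mitochondrial DNA, rose by 0.18, a call that did not stand with the term (adjusted p = 0.24). Of 28 genes of the TCA cycle and fatty acid oxidation 4 rose and 7 fell, the falls near the share of all genes. With the term 1 rose and 7 fell, against 11% and 13.5% of protein-coding style genes, so those falls were above that share. Among 18 regulators of mitochondrial biogenesis and dynamics 7 rose and 4 fell (2 and 2 with the term), and the mitophagy kinase gene Pink1 fell by 0.38. Of 84 genes with symbols of cytosolic ribosomal proteins 43 rose and 0 fell, at a median of 0.08. With the term 0 changed in either direction, while 77 rose without WT Dox 1. The 3 that rose at least 2-fold were Rpl6l, Rps3a3 and Rps3a2, by 1.04 to 1.24, and none of these passed with the term. Members were taken by symbol, and such a symbol can belong to a processed pseudogene, as for 3 of the 45 rises of at least 2-fold counted above. Many ribosomal protein genes have near-identical copies, so their counts are uncertain.

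Cholesterol genes moved down together by small steps. Of 29 measured genes of synthesis and uptake 24 fell and 0 rose, against 25.5% and 25.3% of all genes. Their median log2 fold change was -0.17, and with the term for the low libraries 19 fell and 0 rose. Against a 1.2-fold change 4 fell. Of the 20 synthesis enzymes 18 fell. Tm7sf2, a sterol reductase, had 11.3, 11.7 and 11.2 CPM in WT Dox, against 17.6, 16.9 and 16.4 CPM in WT DMSO (-0.57 ± 0.049). Acat2, which joins acetyl-CoA units at the entry of the pathway, had 83.1, 85.4 and 86.1 CPM in WT Dox, against 118, 122 and 119 CPM in WT DMSO (-0.49 ± 0.026). Nsdhl and Mvk, further enzymes of the pathway, fell by 0.38 and 0.35, and Insig1, which restrains the regulator SREBP, fell by 0.27. Msmo1 and Scap, the SREBP escort, had 0.02 and 0.04 and did not pass. Of 11 fatty acid synthesis genes 7 fell and 2 rose (7 and 0 with the term), with the desaturases Fads2 and Scd1 at -0.33 and -0.28 and Acly, which makes acetyl-CoA in the cytosol, at -0.23.

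Mitotic genes likewise fell by small steps. Of 36 genes of G2 and mitosis 33 fell and 0 rose, against 25.5% and 25.3% of all genes. Their median log2 fold change was -0.19. In the fit with that term 16 fell and 0 rose, and against a 1.2-fold change 2 fell. All 15 spindle and kinetochore genes fell. Kif2c, a microtubule depolymerase, had 65.1, 67.4 and 66.9 CPM in WT Dox, against 87.8, 87.6 and 88.6 CPM in WT DMSO (-0.40 ± 0.027). Cdc20, which helps to start anaphase, had 89.7, 94.5 and 91.7 CPM in WT Dox, against 116, 119 and 115 CPM in WT DMSO (-0.34 ± 0.028). Nusap1 and Cdca3 fell by 0.33 and 0.32, and Bub1 and Cdc25b had -0.02 and 0.02 and did not pass. Genes of S phase did not fall with them, since 17 of 33 rose and 5 fell. With the term 6 rose and 4 fell, and against a 1.2-fold change 0 moved in either direction. Among the 11 that license replication origins 9 rose and 0 fell (5 and 0 with the term), Mcm2 by 0.17 and Cdt1 by 0.19, whereas Tk1 and Rrm2, of nucleotide supply, fell by 0.18 and 0.17. In bulk RNA, fewer cells of a type or phase and less RNA per cell cannot be told apart.

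Inflammatory genes that respond to NF-kappa B were lower in WT Dox. Of 34 measured 26 fell and 4 rose, against 25.5% and 25.3% of all genes. Their median log2 fold change was -0.36, and 24 fell and 1 rose with the term for the low libraries. Against a 1.2-fold change 17 fell and 1 rose. Cxcl5, a chemokine for neutrophils, had 590, 589 and 590 CPM in WT Dox, against 1119, 1132 and 1160 CPM in WT DMSO (-0.95 ± 0.022). Cebpd, a C/EBP factor of acute inflammation, had 91.0, 96.3 and 92.9 CPM in WT Dox, against 220, 218 and 205 CPM in WT DMSO, and its log2 fold change of -1.20 ± 0.031 was the largest fall among protein-coding style genes at a mean of at least 3 on the log2 CPM scale. The cytokine gene Il6 had 9.14, 8.97 and 9.21 CPM in WT Dox, against 16.95, 18.1 and 17.5 CPM in WT DMSO (-0.94 ± 0.050). In all 3 the groups were far apart, and the WT Dox libraries were close to each other. At least 2-fold falls were seen for Cebpd, Nos2, which makes nitric oxide (-1.63), and the chemokine gene Cxcl1 (-1.72), against 0.245% of all genes. Cxcl1 was low, at 0.937, 0.595 and 0.741 CPM in WT Dox, against 2.74, 2.39 and 2.35 CPM in WT DMSO. Ptx3, a secreted pentraxin, fell by 0.64, the monocyte chemokine gene Ccl2 by 0.47, and Nfkbia, the inhibitor that NF-kappa B itself induces, by 0.42. The serum amyloid gene Saa3 and Il11 had -0.07 and -0.01 and did not pass. The 4 that rose were Csf1, Cxcl10, Ccl5 and Il33, by 0.13 to 0.49, of which Csf1 alone passed with the term. Of the macrophage markers 4 of 10 were in the table and 3 of these fell, Cd14 by 0.53, Lyz2 by 0.42 and Csf1r by 1.16, the last at a mean of 0.589 CPM in WT Dox and 1.32 CPM in WT DMSO. With the term Cd14 alone passed, while Lyz2 had -0.37 (adjusted p = 0.075) and Csf1r -0.83 (adjusted p = 0.055). The part of macrophage markers in the result was not tested.

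A form of the kappa B site with 1 free base, searched on both strands in the same promoter windows, was present in 6 of the 24 NF-kappa B list genes with a promoter in the table (25%), against 48 of 9407 measured genes (0.51%). It was found in genes that fell, such as Il6 and Nfkbia, and in Csf1, which rose, and these are shown with the match, on either strand, in capitals. The free base is the fifth of the match in Il6 and the sixth in Nfkbia and Csf1, where the match lies on the other strand.
Il6, chr5:30013044-30013103, plus strand: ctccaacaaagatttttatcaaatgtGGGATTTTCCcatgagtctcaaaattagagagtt
Nfkbia, chr12:55492648-55492707, minus strand: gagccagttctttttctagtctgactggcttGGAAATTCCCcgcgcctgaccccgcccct
Csf1, chr3:107760590-107760649, minus strand: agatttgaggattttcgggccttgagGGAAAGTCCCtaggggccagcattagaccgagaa
The sterol element TCACNCCAC was present in 1 of 21 cholesterol list promoters (4.76%), against 1.31% of those of measured genes.

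Other genes of the acute-phase kind were among the 20 largest falls. Serpina3g, a protease inhibitor, had 166, 168 and 171 CPM in WT Dox, against 322, 319 and 320 CPM in WT DMSO (log2 fold change -0.93 ± 0.022), and Serpina3f fell by 1.10. All 5 measured members of the Serpina3 family fell, but they are close copies of each other, so reads may be shared among them, and 1 of 5 fell with the term for the low libraries. Hp, haptoglobin, had 45.0, 47.2 and 48.6 CPM in WT Dox, against 94.4, 93.2 and 93.2 CPM in WT DMSO (-0.996 ± 0.031), and it did not pass with the term (-0.58, adjusted p = 0.27). Of the 20 largest falls 18 were called with the term, and Serpina3f and Hp were not. Of 23 interferon-stimulated genes 6 rose and 7 fell, at a median of 0.05, near the 25.3% and 25.5% of all genes. With the term 0 rose and 6 fell, against 11% and 13.5% of protein-coding style genes.

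The remaining large falls lie in signalling and matrix genes. Rasl11a, a small GTPase of the Ras family, had 34.0, 35.6 and 35.2 CPM in WT Dox, against 77.8, 79.6 and 77.3 CPM in WT DMSO (log2 fold change -1.16 ± 0.030). Epas1, which encodes the hypoxia factor HIF-2 alpha, had 8.89, 8.03 and 8.31 CPM in WT Dox, against 17.8, 16.2 and 17.9 CPM in WT DMSO (-1.04 ± 0.058). Lxn, a carboxypeptidase inhibitor, had 62.6, 61.6 and 62.9 CPM in WT Dox, against 111, 113 and 110 CPM in WT DMSO (-0.84 ± 0.027). The groups of these genes did not overlap. The others, at 5.70 to 61.7 CPM on average in WT Dox, were Elfn1 (-0.95), the exchange factor gene Rasgrp3 (-0.86), the integrin ligand gene Npnt (-0.86), the oxysterol hydroxylase gene Cyp39a1 (-0.85), the calcineurin regulator gene Rcan2 (-0.85), the calcium sensor gene Ncald (-0.82), Draxin (-0.79) and Sh2d3c (-0.79), with Id4, Smad9 and Atoh8.

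Of 31 glycolysis and hypoxia genes 22 rose and 5 fell, with a median log2 fold change of 0.12, and 9 rose and 4 fell with the term for the low libraries. Over all genes 25.3% rose and 25.5% fell, and with the term 11% and 13.5% of protein-coding style genes did. Ero1l, an oxidase of the endoplasmic reticulum and a hypoxia target, had 77.6, 75.05 and 73.5 CPM in WT Dox, against 43.1, 41.4 and 41.6 CPM in WT DMSO (0.84 ± 0.031), while the hypoxia target Adm fell by 0.41. The unfolded protein response of the endoplasmic reticulum showed no common direction, with 9 of 26 up and 7 down at a median of 0.02 (7 and 5 with the term). Hspa5, its main chaperone, had 987 to 1007 CPM in WT Dox and 979 to 999 CPM in WT DMSO (0.02, adjusted p = 0.56), and Calr fell by 0.20. Of 29 NRF2 antioxidant genes 14 rose and 8 fell, Hmox1 by 0.35 upward and the peroxidase gene Gpx1 by 0.73 downward, from a list in which Slc7a11 is counted too. With the term 8 of them rose and 7 fell. Gpx1 had 167, 183 and 177 CPM in WT Dox, against 294, 294 and 287 CPM in WT DMSO. Of 14 cytosolic heat shock genes 7 rose and 4 fell (3 and 3 with the term), and Cryab fell by 0.46. Of 21 p53 targets 11 rose and 3 fell (6 and 3 with the term). The growth arrest gene Gadd45a had 28.1, 27.9 and 28.6 CPM in WT Dox, against 16.7, 14.6 and 15.2 CPM in WT DMSO (0.86 ± 0.048), but Cdkn1a, which encodes the cell cycle inhibitor p21, had 0.04 (adjusted p = 0.21) and Fas fell by 0.51.

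Targets of TGF-beta and YAP split. Of 23 measured 7 rose and 12 fell (6 and 7 with the term for the low libraries). Over all genes 25.3% rose and 25.5% fell, and with the term 11% and 13.5% of protein-coding style genes did. The feedback genes Skil and Pmepa1 rose by 0.98 and 0.92, and Pmepa1 had 59.9, 64.0 and 62.6 CPM in WT Dox, against 32.8, 33.2 and 32.4 CPM in WT DMSO. Thbs1 and Cyr61 fell by 0.42 and 0.43, and Thbs1 had 759, 717 and 718 CPM in WT Dox, against 978, 977 and 988 CPM in WT DMSO. Of 26 immediate-early genes 7 rose, near the share of all genes, and 11 fell. With the term 8 rose and 7 fell, both above the 11% and 13.5% given for that fit. Klf10 was up by 0.74 and Junb down by 0.44. Among the 28 measured matrix genes of fibroblasts there were 13 rises and 5 falls (10 and 2 with the term), with Postn at 0.44 and Tnc at -0.44. Of 20 HOX genes, which set position along the body, 12 fell and 1 rose, and 5 fell and 0 rose with the term. In the A cluster 5 of 7 fell, and Hoxa5 had 51.4, 51.9 and 51.5 CPM in WT Dox, against 69.0, 69.1 and 69.3 CPM in WT DMSO (-0.42 ± 0.027). Lysosome and autophagy genes had no common direction, with 9 of 33 up and 10 down, near the shares of all genes. With the term 4 rose and 8 fell, and those falls were above the 13.5% given for that fit. Of 18 replication-dependent histone genes 0 rose and 4 fell (0 and 2 with the term), the falls near the share of all genes. Of 2 metallothionein genes 1 fell (0 with the term).

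The response differed between WT and KO cells in many of these genes. The difference between the doxycycline effects, tested over all 12 libraries, was called for 3918 protein-coding style genes (34.7%), with 1680 more positive in WT (14.9%) and 2238 more negative (19.8%). Of the 20 largest rises in WT, 17 differed from KO and all 17 were larger in WT, with a median log2 fold change of 1.28 in WT and 0.34 in KO. These genes were chosen for their size in WT, which partly sets this order. Of the 20 largest falls 18 differed, 16 of them more negative in WT, with medians of -0.90 in WT and -0.24 in KO. In KO itself 13 of the 20 rises and 9 of the 20 falls were called in the same direction as in WT, against 11.6% of all genes that rose in KO and 10.1% that fell. Trib3 had a log2 fold change of 3.02 in WT and 0.37 in KO, Chac1 of 2.23 and -0.03, and Sesn2 of 1.27 and -0.04, in the same order of WT and KO. The differences of Trib3, Chac1 and Sesn2 were 2.64 ± 0.084, 2.24 ± 0.062 and 1.297 ± 0.046. Atf4 itself rose by 0.89 in WT and 0.12 in KO. Over the whole integrated stress response list the difference was positive and called for 24 genes and negative for 3, against 14.3% and 18.2% of all genes, with a median log2 fold change of 0.40 in WT and 0.10 in KO. In KO 16 of the 35 rose and 2 fell. For the cytosolic synthetases the difference was positive and called for 18 of 20, though 13 of them rose in KO too and 0 fell, with Nars at 0.79 in WT and 0.11 in KO. Lonp1 had 0.67 in WT and -0.04 in KO.

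For cholesterol genes 24 fell in WT, while in KO 17 of 29 rose and 0 fell, and the difference was negative and called for 26. Over all genes 11.6% rose and 10.1% fell in KO, and the difference was positive and called for 14.3% and negative for 18.2%. Nsdhl had -0.38 in WT and 0.26 in KO. For G2 and mitosis genes 8 of 36 rose in KO and 0 fell, and the difference was negative and called for 33. Cdc20 had -0.34 in WT and -0.03 in KO. The NF-kappa B list had a median log2 fold change of -0.36 in WT and -0.85 in KO. Its difference was positive and called for 22 of 34 genes and negative for 5, the negative ones near the share of all genes. Cxcl5 had -0.95 in WT and -2.75 in KO, and Il6 -0.94 and -2.41, in the same order. Cebpd had -1.20 in WT and -1.02 in KO, with a difference of -0.19 ± 0.049 that passed (adjusted p = 0.0045), though not with the term for the low libraries (adjusted p = 0.085). Smad9 and Hp had opposite signs, -0.86 and -0.996 in WT and 0.72 and 0.52 in KO. Pmepa1 rose by 0.92 in WT and 2.66 in KO. Skil had 0.98 in WT and 1.12 in KO, a difference of -0.15 ± 0.061 that did not pass (adjusted p = 0.059).

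**Figure D4:**
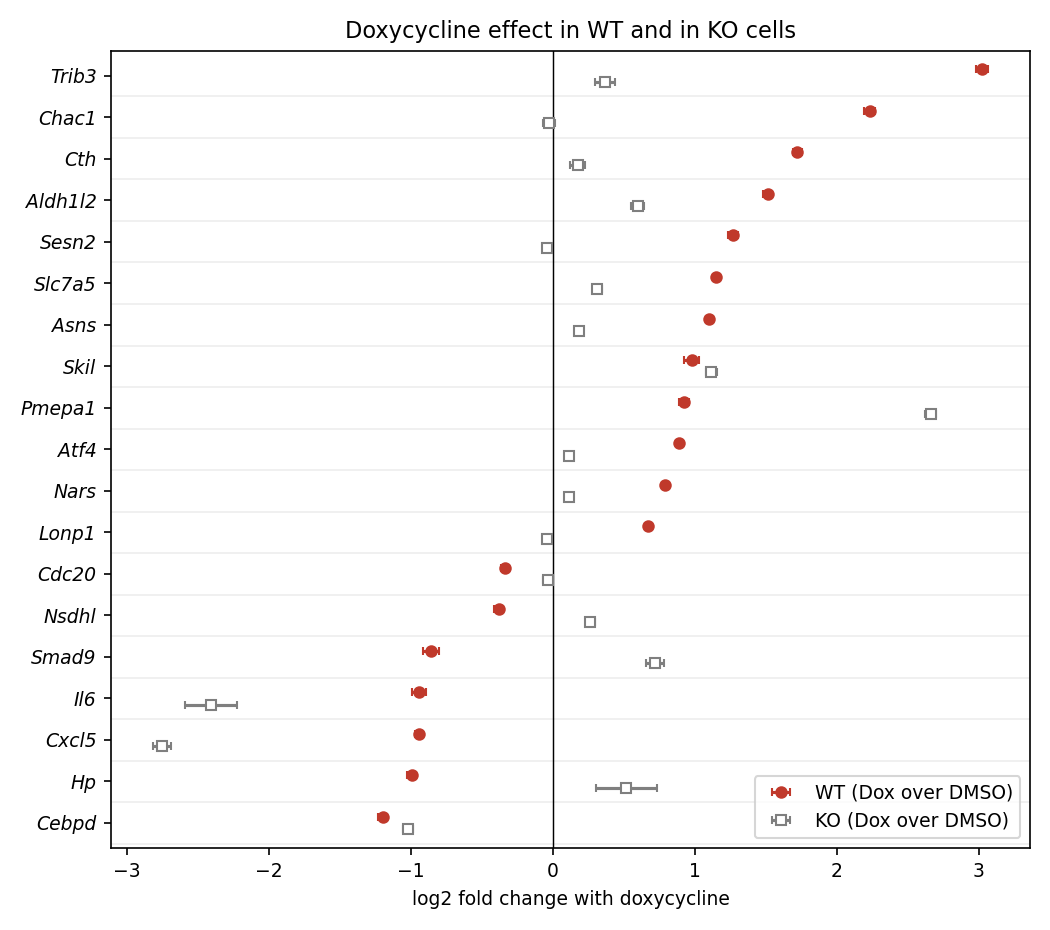
log2 fold change with doxycycline for 19 genes in WT (filled circles, 6 WT libraries) and in KO (open squares, fit over 12 libraries), with bars of 1 SE. Stress response genes lie further right in WT than in KO, where Trib3 stands at 0.37 and Chac1 at -0.03. Cxcl5 and Il6 lie further left in KO, and Smad9, Hp and Nsdhl lie on opposite sides of 0.

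Genes with pseudogene style symbols, Gm numbers and names ending in -ps, are given apart. Of 834 such genes 252 rose (30.2%) and 118 fell (14.1%), and 124 rose at least 2-fold (14.9%), so they made up most of the 170 genes of the whole table with rises of this size. Only 264 of the 834 are annotated as processed pseudogenes, copies of messenger RNA inserted in the genome. Of these 264, 195 rose and 7 fell, and they held 106 of the 124. The symbols also cover 130 antisense RNA genes, 106 long intergenic RNA genes and 87 protein-coding genes. Most of the 118 falls thus lay outside the processed pseudogenes. The mean log2 CPM of the processed pseudogenes was 1.49 to 1.57 in WT Dox and 0.765 to 0.813 in WT DMSO. In KO cells it was 0.967 to 1.01 in KO Dox, against 0.234 in KO DMSO 1 and 0.977 to 1.01 in KO DMSO 2 and 3. KO DMSO 1 thus stood below its own replicates. Rps2-ps10, a copy of a ribosomal protein gene, had 11.4, 13.7 and 12.8 CPM in WT Dox, against 3.27, 3.09 and 3.14 CPM in WT DMSO (log2 fold change 1.998), and Oaz1-ps had 8.46, 9.20 and 9.42 CPM in WT Dox, against 2.57, 2.47 and 2.35 CPM in WT DMSO (1.87). Gm7901, Rpsa-ps10 and Rpl10a-ps1 rose by 1.98, 1.57 and 1.56. With the term for the low libraries these 5 had log2 fold changes of 0.13, 0.26, 0.77, 0.06 and 0.21 and did not pass, and 11 pseudogene style genes rose (1.32%) and 33 fell (3.96%). Of the 264 processed pseudogenes 4 rose and 4 fell with the term, and their median was 0.86 without it and -0.00 with it. The 4 low libraries were picked by their level of these same genes. Smaller changes with the term were therefore built in by that choice and are no test. Reads of a processed pseudogene and of its parent gene are hard to separate, so these values are uncertain. Reads with several matches in the genome took 6.27 to 6.57% of all reads in WT Dox and 6.01 to 6.07% in WT DMSO.

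**Figure D5:**
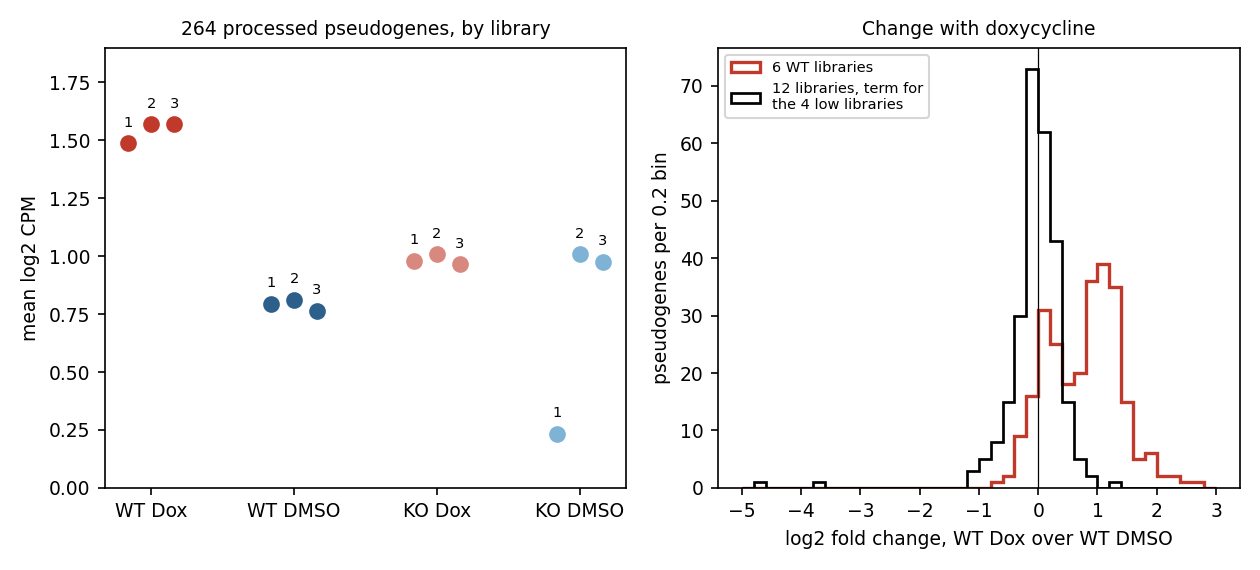
Left: mean log2 CPM of 264 processed pseudogenes in each of the 12 libraries, with replicate numbers above the points. The WT DMSO libraries and KO DMSO 1 stand low, the last at 0.234. These 4 were picked by this level, so the shift shown at right was built in by that choice. Right: number of these pseudogenes by log2 fold change of WT Dox over WT DMSO, from the 6 WT libraries (red) and from all 12 with a term for the 4 low libraries (black), whose medians are 0.86 and -0.00.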

How the data were processed

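Polyadenylated RNA of mouse fibroblasts was sequenced on a BGISEQ-500, per the labels' protocols. STAR 2.6.0a, HTSeq 0.10.0 and build GRCm38.p6 are named in the submitters' processing notes, while the strand setting of the counting was not stated. The authors deposited raw counts per gene, with 4 rows of unassigned reads that were kept out of library sizes and tests (ambiguous reads alone took 4.86 to 5.03% in the WT libraries).

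From these counts edgeR 4.0.16 (R 4.3.3) fitted the 6 WT libraries with TMM scaling and its quasi-likelihood test, without a filter, with Benjamini-Hochberg adjustment over all 12637 genes. Every gene had at least 1.24 CPM in some library. The SE is the log2 fold change over the root of F. The difference between WT and KO was tested over all 12 libraries, and DESeq2 1.42.0 and limma 3.58.1 were alternatives. The method was tested on simulated data with known changes. Gene types come from GENCODE M21, which held 12628 of the genes, and promoters from RefSeq.

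The comparison and the gene lists were chosen with earlier results of these data known. Named were Crebbp and Ep300, the 20 largest called rises and falls of protein-coding style symbols at a mean log2 CPM of at least 3 with groups that do not overlap, the 5 pseudogenes with the largest rise at a mean of at least 2, members of the stress response, serine, transporter and mitochondrial DNA lists, and from each other list up to 5 called and 3 uncalled members. Ccl5, Csf1, Cxcl1, Cxcl10, Gpx4, Id1, Id2, Il33, Nfkbia, Nos2, Pck2, Qars, Rpl6l, Selenoh, Selenop, Selenow, Sephs2, Smad6, Smad7, Spg7 and Txnrd1 were named after their values were seen.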

Additional observations from a re-analysis of the deposited data

Results flagged for a closer look

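The genes here were singled out because the doxycycline effect differed between WT and KO cells in edgeR's test of the difference itself, over all 12 libraries. Each value is the WT minus KO difference of log2 fold changes. The stress response genes had positive differences, of 2.64 for Trib3, 2.24 for Chac1, 1.54 for Cth, 1.297 for Sesn2, 0.90 for Asns and 0.76 for Atf4. So did the folate enzyme gene Aldh1l2 (0.90), the amino acid carrier gene Slc7a5 (0.82), the asparaginyl-tRNA synthetase gene Nars (0.67) and the mitochondrial protease gene Lonp1 (0.69). Cxcl5 (1.79) and Il6 (1.45) were also positive, with falls in both cell types. Negative differences were found for Pmepa1 (-1.75), which rose in both, for Smad9 (-1.59), Hp (-1.53) and the sterol enzyme gene Nsdhl (-0.66), for Cdc20 (-0.32), and for Cebpd (-0.19), which fell in both. WT DMSO 1, 2 and 3 and KO DMSO 1 share the low pseudogene level, and with a term for these libraries the difference of Cebpd did not pass (-0.13, adjusted p = 0.085), while the others named here did.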

How the results depend on the processing

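Of the protein-coding style genes 2881 rose and 3012 fell. These counts were 354 and 491 against a change of 1.2-fold, since that test asks for larger changes, and 1239 and 1524 with the term for the 4 low libraries. Of the pseudogene style genes 252 rose, 118 fell and 124 rose at least 2-fold, and with the term these were 11, 33 and 1. The term marks libraries picked by their low level of processed pseudogenes, so fewer rises with it were built in by that choice. The 118 falls were 68 with DESeq2 and 16 against a 1.2-fold change. Leaving out 1 library at a time gave 2340 to 3430 rises and 2502 to 3317 falls of protein-coding style genes, 236 to 262 rises, 75 to 130 falls and 120 to 135 2-fold rises of pseudogene style genes, the 75 without WT DMSO 1. The difference between WT and KO gave 1415 to 1832 positive and 1679 to 2532 negative calls when 1 library was left out. With the term it gave 1170 and 1614, and without TMM scaling 1923 and 1980. The term turned the sign of Trib2 (0.037, against -0.24), Il33 (-0.051, against 0.49), Rps3a2 (-0.081, against 1.24), mt-Nd1 (-0.0003, against 0.15) and mt-Cytb (-0.051, against 0.09), and none of these passed with it. The cause of these shifts was not tested. Replicate numbers did not pair the samples, with correlations of -0.026, 0.256 and -0.204 between same-numbered libraries. With a replicate block 2846 rose and 3010 fell. No scaling moved the median log2 fold change of all genes by more than 0.013.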

Other observations

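Both groups of genes described here were chosen after their values were seen. Of 24 selenoprotein genes, whose products carry the amino acid selenocysteine, 18 were measured and 8 fell and 6 rose, against 25.5% and 25.3% of all genes that fell and rose in WT. Selenop, the plasma selenium carrier, had 59.6, 60.2 and 58.4 CPM in WT Dox, against 99.9, 102 and 101 CPM in WT DMSO (log2 fold change -0.77). Selenoh and Selenow fell by 0.70 and 0.56, as Gpx1 did by 0.73. Sephs2, which makes the selenium donor, rose by 0.44, and Gpx4 and Txnrd1 rose by 0.15 and 0.07, though not with the term for the low libraries (adjusted p = 0.40 and 0.41). With that term 7 fell and 3 rose.

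Of 9 measured targets and members of BMP-SMAD signalling 8 fell and 1 rose, against 25.5% and 25.3% of all genes. Their median log2 fold change was -0.58 in WT and -0.14 in KO. Since the group was chosen with its values in view, these counts and medians are a description and no test. Id4 and Smad9 are among the 20 largest falls, as is Atoh8, a basic helix-loop-helix factor (-0.79). Id1 and Id2, inhibitors of such factors, fell by 0.42 and 0.67, and the inhibitory SMAD gene Smad6 by 0.47, whereas Smad7 rose by 0.12. With the term 7 fell and 1 rose.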
